A study of Mus musculus with 48 samples.

Results

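E14 embryonic stem cells (ESCs), a reference mouse line with no reporter, were set against Nanog-GFP reporter ESCs, and the question was how far the reporter lines that gave rise to the reprogramming system differed from an ordinary ESC line. The comparison used 8 of the 48 libraries of the series: 2 of E14 ESCs and 6 of TNG ESCs. Members were chosen by their labels alone. TNG cells carry GFP in 1 Nanog allele, and they were measured as the parental line (TNG ESCs, n = 2) and as derivatives holding a doxycycline-inducible reprogramming cassette in the Sp3 locus, in the factor order MKOS (TNG MKOS ESCs, n = 2) or OKMS (TNG OKMS ESCs, n = 2). The OKMS cassette encodes a short form of Klf4, and the cassette lines were obtained by gene targeting and drug selection of clones, with 1 line of each kind sequenced. No doxycycline is given for any of these ESC libraries, and all the lines are described as kept in serum with leukemia inhibitory factor (LIF). The sources do not give ages, passage numbers or the E14 subline, and nothing says that replicates were separate cultures. The p-values therefore measure only spread between libraries. In the fit of all 48 libraries this spread was taken from every condition of the series and not from the ESC libraries alone.

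Mouse ESCs keep their identity through a network of transcription factors around Pou5f1, Sox2 and Nanog. LIF, acting through Stat3, and serum factors hold this state, in which naive factors such as Esrrb and Klf4 are present and primed factors such as Fgf5 are low. ESC lines also differ from each other by imprinting, by low transcription of germ cell genes and by changes of the karyotype gained in culture. RNA was counted by STRT sequencing, which reads the 5′ ends of transcripts, so that the level of a gene is a number of reads at its start. Levels are given in CPM, which is reads scaled to the same total of reads on transcripts in each library.

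The 8 libraries held 5965409 to 11476150 reads on transcripts, and 3 reads corresponded to 0.261 to 0.503 CPM. Mitochondrial transcripts took 8.08% and 9.19% of reads in E14 and 3.33% to 8.03% in TNG, with TNG OKMS replicate 1 the lowest. All 10 ESC markers fixed for the check were present in every library: Zfp42, a naive pluripotency marker, stood at 956 and 816 CPM in E14 and between 611 and 1053 CPM in TNG. The 10 fibroblast markers summed to 6.64 and 10.4 CPM in E14, to 4.97 to 8.38 CPM in TNG and to 3380 to 5630 CPM in the fibroblasts (MEFs) of the series, and Twist2 had no read in any of the 8 ESC libraries. In bulk RNA, fewer cells of a type and less RNA per cell cannot be told apart.

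The genes that tell the genotypes apart were looked at first. Nanog, the factor whose locus carries the reporter, was at 104 and 91.8 CPM in E14 and at 49.0, 74.5 and 126 CPM (lowest, median and highest) in the 6 TNG libraries. The E14 values lay inside the TNG range, and the log2 fold change of 0.40 ± 0.44 (SE) had a 95% interval of -0.48 to 1.28 (edgeR, false discovery rate [FDR] = 0.96). Transcript starts cannot tell the GFP allele from the other Nanog allele in this table, so the level is that of both together. The paper calls the other allele of TNG MKOS ESCs the remaining intact one. In TNG the level may therefore include RNA of the GFP allele that does not encode NANOG. Sp3, a transcription factor of the Sp family whose locus received the cassettes, was at 42.6 and 34.2 CPM in E14. It was at 31.6 and 42.1 CPM in parental TNG, at 20.6 and 32.0 CPM in TNG MKOS and at 23.97 and 23.73 CPM in TNG OKMS. The values of the lines with a cassette lay below both E14 values, and no contrast for Sp3 passed the test, the lowest FDR being 0.60 against TNG OKMS.

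The factors encoded in the cassettes were not different between E14 and TNG by the test. Pou5f1 (Oct4) stood at 716 and 886 CPM in E14 against 803 to 1230 CPM in TNG, and Sox2 at 263 and 267 CPM against 227 to 407 CPM. Myc stood at 18.8 and 19.8 CPM in E14 against 15.1 to 37.6 CPM. Klf4 was at 32.5 and 28.1 CPM in E14 and at 90.2 and 64.6 CPM in TNG OKMS, with the other TNG libraries between 22.01 and 37.51 CPM. The log2 fold change of E14 against TNG OKMS was -1.19 (FDR = 0.43). The cassettes carry the factors on a shared polycistronic transcript, and the reads come from transcript starts. These levels therefore do not show whether a cassette was expressed, which was not tested.

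Hprt, the purine salvage enzyme whose loss marks the E14Tg2a subline, was almost absent from both groups. It had 7 and 14 reads in E14, which is 0.929 and 1.73 CPM, and 0 to 2 reads in each TNG library. The highest TNG value was 0.335 CPM. Wild-type MEFs of the series held 197 and 192 CPM, and D6 iPSCs held 241 and 275 CPM. Both E14 and TNG libraries therefore lay far below the wild-type MEFs and the D6 iPSCs. E14 was above every TNG library, but the difference did not pass the test (log2 fold change 3.67 ± 0.92, FDR = 0.056). The call was gained with a replicate block (FDR = 0.043), with the 24 unsorted libraries (0.00143), with no filter on low counts (3.3e-06) and without TNG OKMS replicate 1 (0.0497). The iPSCs kept without doxycycline held 0.355 to 1.86 CPM, a range that takes in both E14 values.

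Across all genes the lines were close. Of 15630 genes tested with edgeR's quasi-likelihood test, 57 were higher in E14 than in the mean of the TNG lines at an FDR of at most 0.05, which is 0.365% of the genes, and 14 were lower, which is 0.0896%. The number of higher genes depended on the fit: it was 99 (0.781%) when the 8 ESC libraries were fitted alone and 21 with DESeq2, and the lower genes numbered 33 (0.26%) and 12. The mean distance of E14 from TNG libraries, taken as 1 minus Pearson's r of variance-stabilized counts, was 0.0320. Libraries of different TNG lines were 0.0295 apart, the E14 replicates 0.0201, the TNG replicates 0.0183, the TNG MKOS replicates 0.0362 and the TNG OKMS replicates 0.0324. The E14 distance was smaller than that between the TNG MKOS replicates, and the excess of the E14 distance over that among all TNG libraries, 0.0026, did not pass the exact permutation test (two-sided p = 0.64 over 28 splits).

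**Figure D1:**
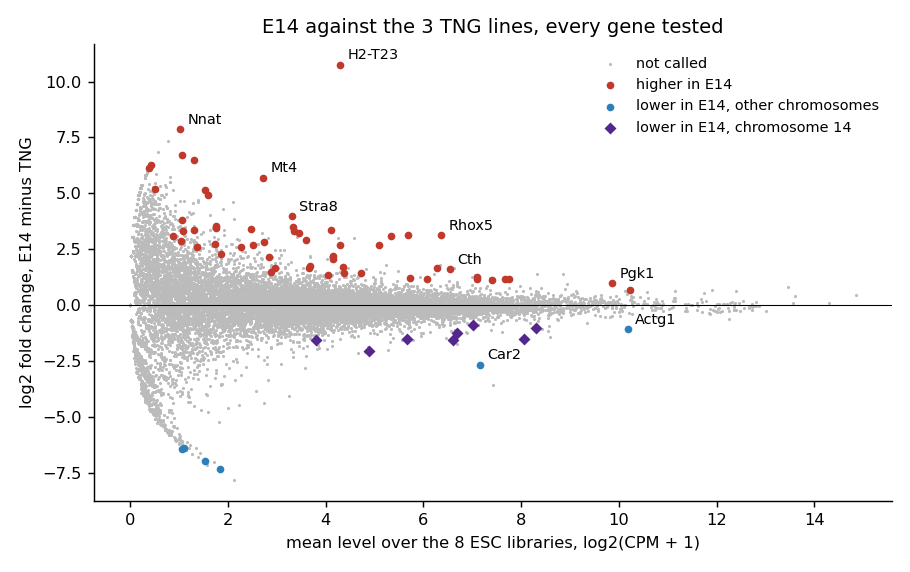
Log2 fold change of E14 minus TNG (vertical) against the mean level over the 8 ESC libraries in log2(CPM + 1) (horizontal), 1 point for each of the 15630 genes tested. The 57 genes called higher in E14 are red, the 8 called lower on chromosome 14 are violet diamonds and the other 6 called lower are blue.

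When each TNG line was taken by itself, with the same E14 libraries each time, 7 genes passed against parental TNG (0.0448% of the genes), 12 against TNG MKOS (0.0768%) and 33 against TNG OKMS (0.211%). Among the TNG lines, 1 gene passed between TNG MKOS and TNG (0.0064%), none between TNG OKMS and TNG and 10 between TNG OKMS and TNG MKOS (0.064%). For TNG OKMS and TNG, edgeR gave 725 genes an unadjusted p under 0.05, and DESeq2 called 8 genes. Tuba3a and H2-T23 were the genes called against all 3 lines. The calls rested on few libraries: without E14 replicate 1, 57 of the 71 calls (0.454% of the genes) were lost, without E14 replicate 2, 59, and without single TNG libraries between 10 (TNG MKOS replicate 1) and 36 (TNG MKOS replicate 2). The calls that outlasted every such omission were the 7 of Rhox5, Tuba3a, Mt4, Khdc3, Glipr2, Plac8 and Nnat. With DESeq2, those of Mt4, Glipr2, Plac8 and Nnat were made as well and those of Rhox5, Tuba3a and Khdc3 were not. In all, 20 of the 48 named genes lost their call. The 48 include genes with no call to lose, among them Nanog, Sp3, Pou5f1, Sox2, Klf4, Myc and Hprt.

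The core pluripotency genes held no call between E14 and TNG. None of the 26 genes of the general list passed the test, 9 being above 0 and 17 below. Their median log2 fold change was -0.14 where that of all genes at 10 CPM or more was -0.03. In 2 of the 26 both E14 libraries lay above all TNG libraries and in 5 below them. All genes showed these patterns in 5.72% and 4.87%. Dppa5a, an RNA-binding protein abundant in ESCs, was at 15577 and 14630 CPM in E14 and at 8822 to 13971 CPM in TNG (FDR = 0.91). None of the 24 naive genes passed either. Esrrb, an orphan nuclear receptor, was at 158 and 165 CPM in E14 and 85.1 to 194 CPM in TNG. Dppa3 (Stella), a maternal factor that protects imprints, was at 182 and 143 CPM in E14 against a TNG median of 40.6 CPM and a highest value of 133 CPM, so the groups did not overlap. Its log2 fold change of 1.79 ± 0.63 had an FDR of 0.27 in the fit of all 48 libraries and of 0.03 in a fit of the 8 ESC libraries alone. That fit also called 2 naive genes lower in E14, Tdh and Gbx2, a homeobox target of LIF that stood at 6.37 and 4.58 CPM against 11.1 to 28.6 CPM (FDR = 0.035, and 0.59 in the fit of all libraries). None of the 24 formative and primed genes passed, with a median of -0.45. Otx2, a homeodomain factor of primed cells, was at 24.3 and 30.5 CPM in E14 and between 35.4 and 80.3 CPM in TNG (log2 fold change -0.91 ± 0.78, FDR = 0.88). Otx2 and Tdh lie on chromosome 14 between 48 and 72 Mb, a stretch described below in which most genes were lower in E14. The genes of LIF-STAT3 signaling (20 tested), the Nodal pathway (25), the BMP pathway (20) and Wnt targets (19) held no called member in the fit of all libraries. In the fit of the 8 ESC libraries, Gbx2 of the LIF-STAT3 list and Id3, a BMP target, were lower in E14 (FDR = 0.046 for Id3, at 39.1 and 28.1 CPM against 36.4 to 210 CPM). In the list of FGF-ERK response genes, Ier3, an immediate early gene, was higher in E14 (41.7 and 36.2 CPM against 5.67 to 17.2 CPM, FDR = 0.024).

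Germ cell genes held 5 called members in the fit of all libraries and 4 in that of the 8 ESC libraries. In the latter fit the glycolysis list held 5 and the amino acid list 7, with Ddit4 in both. Of 38 tested genes of the germline list, 5 were higher in E14 (Rhox5, Stra8, Smc1b, Xlr3a and Xlr3c) and none lower, where 0.365% and 0.0896% of all genes were. In the fit of the 8 ESC libraries Xlr3c was not called (FDR = 0.19). The promoters of genes that stood out here are given so that their CpG sites, the positions at which DNA methylation acts, can be seen. They are the 250 bases before the start listed by RefSeq (GRCm38.p6), 5′ to 3′ on the gene's strand with CpG sites in capitals. DNA methylation was not measured.
Tuba3a, chr6:125286082-125286331, minus strand: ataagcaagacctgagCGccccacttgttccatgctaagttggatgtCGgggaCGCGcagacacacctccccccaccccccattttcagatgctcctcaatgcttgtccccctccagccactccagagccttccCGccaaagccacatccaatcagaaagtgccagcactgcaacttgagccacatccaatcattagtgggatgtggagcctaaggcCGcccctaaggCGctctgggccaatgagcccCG
Stra8, chr6:34920698-34920947, plus strand: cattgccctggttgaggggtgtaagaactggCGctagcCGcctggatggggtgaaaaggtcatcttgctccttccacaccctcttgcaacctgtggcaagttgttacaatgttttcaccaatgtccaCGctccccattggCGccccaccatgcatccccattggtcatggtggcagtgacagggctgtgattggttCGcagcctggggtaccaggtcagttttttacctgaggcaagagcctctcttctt
Smc1b, chr15:85131958-85132207, minus strand: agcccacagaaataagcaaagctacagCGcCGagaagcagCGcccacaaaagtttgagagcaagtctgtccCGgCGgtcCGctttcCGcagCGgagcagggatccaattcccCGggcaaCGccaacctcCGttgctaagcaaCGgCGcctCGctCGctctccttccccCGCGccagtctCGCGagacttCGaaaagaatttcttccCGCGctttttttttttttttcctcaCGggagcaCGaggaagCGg
Rhox5, chrX:37754358-37754607, plus strand: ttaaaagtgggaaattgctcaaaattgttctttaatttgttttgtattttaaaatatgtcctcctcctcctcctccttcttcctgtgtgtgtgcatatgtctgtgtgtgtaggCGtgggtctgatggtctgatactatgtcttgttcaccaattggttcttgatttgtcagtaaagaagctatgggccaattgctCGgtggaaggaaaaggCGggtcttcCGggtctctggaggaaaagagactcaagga

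These promoters differ in CpG content. Smc1b holds 25 CpG sites, a number that 10.3% of the 27025 RefSeq promoters reach. Tuba3a holds 8, Stra8 5 and Rhox5 4, near the median of 6. Of the 57 genes higher in E14, 41 matched a promoter, and their median was 8 sites against 15 for the 10799 matched genes of the test. The letters CACGTG, an E-box read the same on both strands, were found in 0 of the 5 called germline promoters and in 11 of 33 matched promoters of the list. They were found in 8.41% of the matched genes of the test and in 6.04% of all promoters. The letters TCCCGC, searched on both strands, were found in Tuba3a and Smc1b among the sequences shown. They occurred in 16.9% of all promoters, in 29.4% of the matched genes of the test and in 14.6% of the matched genes higher in E14.

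Rhox5, an X-linked homeobox gene of the reproductive tract, was at 251 and 204 CPM in E14. In TNG it was at 17.5 and 15.3 CPM in the parental line, at 23.9 and 12.1 CPM in TNG MKOS and at 95.05 and 33.79 CPM in TNG OKMS. Both E14 libraries were above all 6 TNG libraries, which the choice of genes required. E14 was 8.74-fold higher (log2 fold change 3.13 ± 0.39, FDR = 3.1e-06, and FDR = 0.27 with DESeq2). Among TNG libraries the OKMS ones were the highest, and the contrast with TNG OKMS alone was 2.04 on the log2 scale with an FDR of 0.12. Tuba3a, an alpha tubulin enriched in testis, was at 152 and 148 CPM in E14 and at 13.1 to 21.6 CPM in TNG. This made it 8.86-fold higher in E14 (log2 fold change 3.15 ± 0.41, FDR = 8e-06; DESeq2, FDR = 0.68), and it was called against each TNG line, with log2 fold changes of 2.94, 3.39 and 3.12.

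Genes of meiosis and of the oocyte followed. Stra8, which retinoic acid induces before meiosis, was at 37.0 and 21.8 CPM in E14 and at 0.394 to 3.61 CPM in TNG (log2 fold change 3.98 ± 0.85, FDR = 0.024). Smc1b, a cohesin subunit of meiotic chromosomes, was at 29.3 and 28.4 CPM against 0.690 to 7.44 CPM (FDR = 0.024). Aurkc, the meiotic Aurora kinase, was at 30.8 and 25.0 CPM against 0.656 to 5.36 CPM (FDR = 0.026). Khdc3, a maternal-effect gene of the oocyte, was at 29.1 and 25.9 CPM against 0.887 to 5.90 CPM (FDR = 0.0039). None of these had an overlap between the groups, which the choice of genes required. The call of Khdc3 held without any 1 library (FDR up to 0.047), whereas those of Stra8, Smc1b and Aurkc were lost without E14 replicate 1 or 2 and without 3 or more of the TNG libraries in turn, with FDRs of up to 0.25, 0.20 and 0.24. None of these 4 genes was called by DESeq2, with FDRs of 0.49 (Khdc3), 0.63 (Stra8), 0.68 (Smc1b) and 0.58 (Aurkc). Xlr3a and Xlr3c, close copies of an X-linked family between which reads may be split, were at 2.35 to 5.97 CPM in E14 and below 0.84 CPM in TNG. The reads of the whole germline list summed to 1084 and 927 CPM in E14 and to 655 to 843 CPM in TNG. The exact permutation p was 0.036, the smallest that 28 splits allow, and 0.29 after adjustment over 8 such values. Most of the difference between the sums came from Rhox5 alone, at 251 and 204 CPM in E14 and at 12.1 to 95.05 CPM in TNG. The sum without Rhox5 was not tested.

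**Figure D2:**
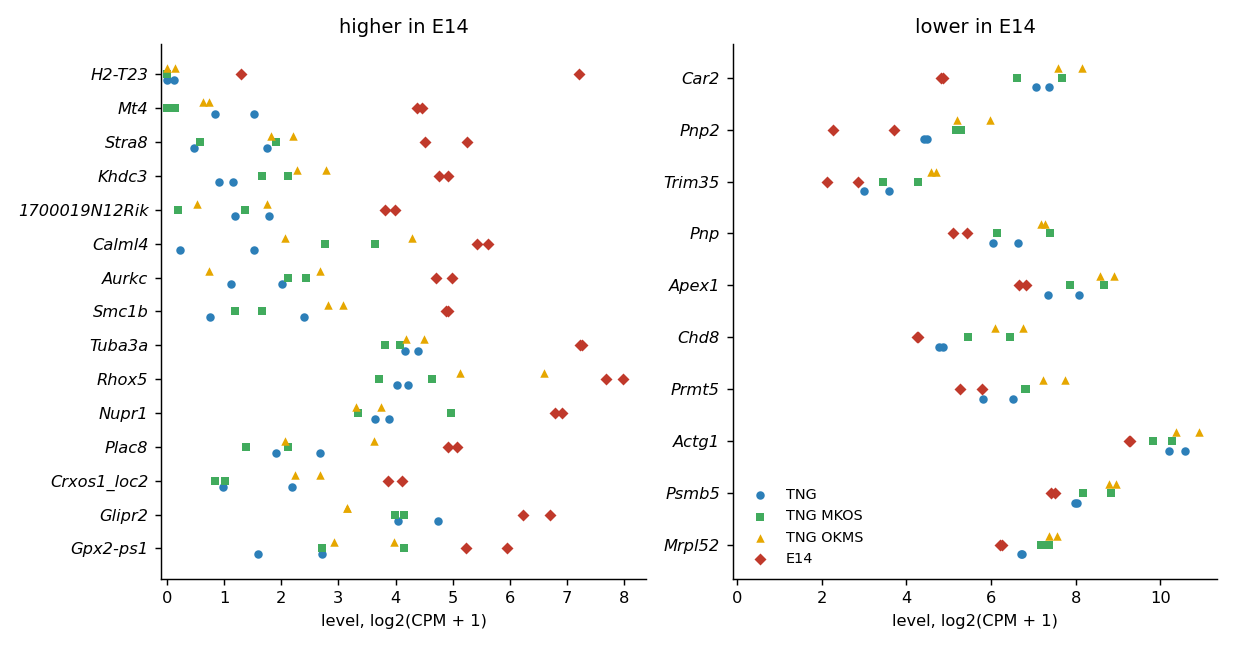
Level in log2(CPM + 1) of the 15 genes with the largest rise (left) and the 10 with the largest fall (right) in E14, at 10 CPM or more in the higher group, 1 point for each library. E14 libraries are red diamonds and lie outside the range of the 6 TNG libraries for each gene, which the choice of genes required; for H2-T23 the E14 libraries are far apart.

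The other genes of the higher group had varied roles. Mt4, a metallothionein of squamous epithelium, was at 21.0 and 19.7 CPM in E14 and at 0 to 1.87 CPM in TNG (log2 fold change 5.71 ± 0.70, FDR = 3.1e-06). Glipr2, a Golgi-associated protein, was at 103 and 73.5 CPM against 7.87 to 25.8 CPM (log2 fold change 2.71 ± 0.35, FDR = 5.5e-06). Plac8 was at 29.1 and 32.6 CPM against 1.599 to 11.23 CPM (FDR = 0.00069). For Calml4, a calmodulin-like protein, the TNG lines were uneven: E14 held 41.9 and 47.8 CPM, parental TNG 1.87 and 0.174 CPM and the cassette lines 3.17 to 18.6 CPM (FDR = 0.0047, and 0.09 without E14 replicate 2). Crxos1_loc2 (16.3 and 13.6 CPM in E14, at most 5.36 CPM in TNG), 1700019N12Rik (13.01 and 14.87 against at most 2.44 CPM) and the pseudogene Gpx2-ps1 (60.5 and 36.4 against at most 16.7 CPM) completed the rule's list with H2-T23 and Nupr1. H2-T23, a non-classical class I histocompatibility gene with close relatives, had 1.46 CPM in E14 replicate 1 and 147 CPM in replicate 2, with at most 0.109 CPM in TNG. Without E14 replicate 2 its FDR was 0.22, so that 1 library decided its call.

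Imprinted genes had 3 of 53 tested members higher in E14 and none lower, against 0.365% and 0.0896% of all genes, and all 3 were close to silent in TNG. The fit of the 8 ESC libraries called H19, Nnat and Phlda2 higher and Ndn lower, and Plagl1 was not tested in it. Phlda2, a maternally expressed gene of the placenta, was at 94.6 and 91.9 CPM in E14 and at 24.1 to 49.1 CPM in TNG (FDR = 0.017 there and 0.51 in the fit of all libraries). H19, a maternally expressed noncoding RNA, was at 5.31 and 9.29 CPM in E14 and at 0.109 to 1.08 CPM in TNG (log2 fold change 3.53 ± 0.60, FDR = 0.0011, and 0.13 without E14 replicate 2). The iPSCs kept without doxycycline held 11.5 to 83.7 CPM of it, and the MEFs up to 3554 CPM. Nnat, a paternally expressed proteolipid of neural cells, was at 3.85 and 4.34 CPM in E14 and had no read in the 6 TNG libraries. Taking 3 reads over the group as the floor, it was at least 73.6-fold higher in E14 (FDR = 0.00068). Plagl1, a paternally expressed zinc finger gene, had 19 reads in E14 and none in TNG (at least 21.8-fold higher, FDR = 0.025, lost without either E14 library). Members that did not pass included the maternally expressed Meg3, at 113 and 76.7 CPM in E14 and 140 to 394 CPM in TNG, a log2 fold change of -1.18 ± 0.34 (FDR = 0.13), and its neighbors Rian and Mirg, with -1.22 and -2.60 (FDR = 0.17 and 0.44). Ndn, a paternally expressed gene, was at 0.531 and 2.35 CPM in E14 and at 6.998 to 13.99 CPM in TNG (FDR = 0.06, and 0.04 with the 8 ESC libraries). The enzymes of DNA methylation had no called member among 16. Dnmt3l, a cofactor of the de novo methyltransferases, was at 240 and 265 CPM in E14 and at 277 to 443 CPM in TNG (log2 fold change -0.41 ± 0.51, FDR = 0.99).

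Of 26 tested genes of amino acid supply and stress, 25 were above 0 with a median log2 fold change of 1.00, and 3 passed, where 0.365% of all genes were higher. For 11 of the 26 both E14 libraries were above all TNG libraries, a pattern that 5.72% of all genes showed. Cth, which makes cysteine, was at 191 and 178 CPM in E14 and at 46.8 to 95.8 CPM in TNG (log2 fold change 1.63 ± 0.39, FDR = 0.035). Phgdh, the first enzyme of serine synthesis, was at 239 and 217 CPM against 84.2 to 123.8 CPM (log2 fold change 1.17 ± 0.28, FDR = 0.034). Nupr1, a small stress-induced chromatin protein, was at 119 and 109 CPM against 8.88 to 30.2 CPM (log2 fold change 3.10 ± 0.76, FDR = 0.046). These 3 calls were close to the threshold. Each was lost without either E14 library and without 4 or more TNG libraries in turn, the FDR rising to 0.31, 0.35 and 0.28. Among members that did not pass, Asns, the asparagine synthetase, was at 298 and 259 CPM in E14 and 79.6 to 232 CPM in TNG (FDR = 0.06), and the chaperone Hspa5 was the 1 gene below 0, at 126 and 146 CPM against 161 to 430 CPM (FDR = 0.24).

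Of 35 tested genes of the glycolysis and pyruvate list, 33 were above 0 (median 0.85) and 2 passed, where 0.365% of all genes were higher. In 17 the E14 libraries stood above all TNG libraries, against 5.72% of all genes. The fit of the 8 ESC libraries called Hk1, Pfkp, Aldoc, Bnip3 and Ddit4 and not Pgk1 (FDR = 0.09). Ddit4 is also a member of the amino acid list, so the calls of the 2 lists are not separate. Hk1, a hexokinase, was at 29.6 and 19.3 CPM in E14 and at 4.21 to 11.6 CPM in TNG (log2 fold change 1.74 ± 0.34, FDR = 0.006, and 0.31 without E14 replicate 1). Pgk1, the X-linked phosphoglycerate kinase, was at 1450 and 1457 CPM against 664 to 949 CPM (log2 fold change 0.98 ± 0.24, FDR = 0.04, and up to 0.47 without single libraries). Ldhb, a lactate dehydrogenase subunit, was at 882 and 779 CPM against 158 to 631 CPM without passing (FDR = 0.19), and Gapdh, at 4312 and 5652 CPM in E14, lay within the TNG range of 3579 to 8336 CPM. The higher share of mitochondrial reads in E14 did not pass the exact permutation test (p = 0.14). Of 35 tested mitochondrial transcripts, 1 was higher, mt-Nd6, which is encoded on the opposite strand from most of the others (303 and 179 CPM against 60.7 to 143 CPM, FDR = 0.032).

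**Figure D3:**
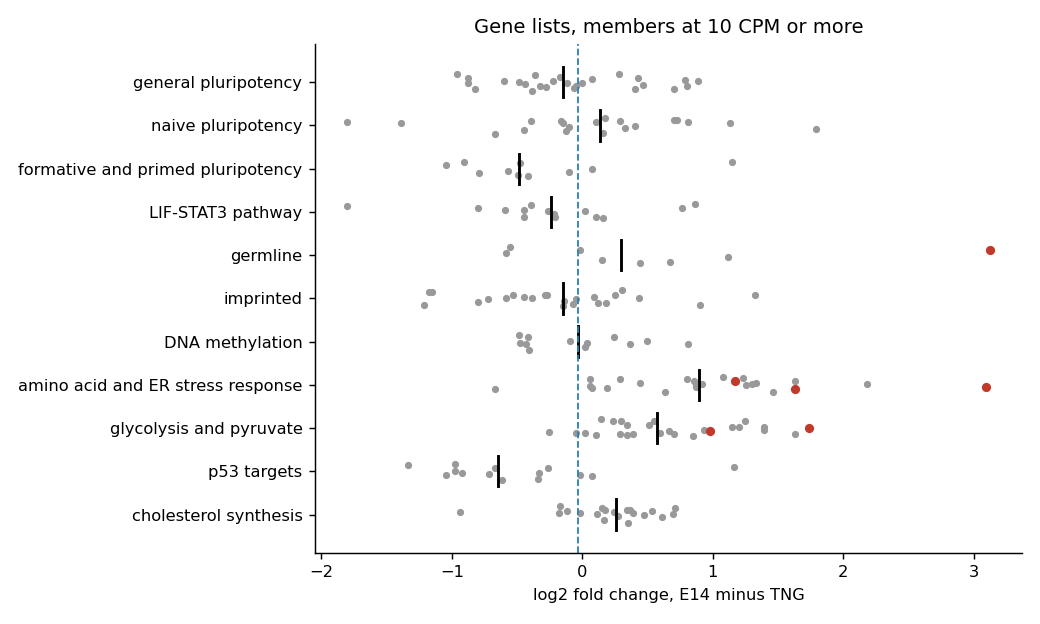
Log2 fold change of E14 minus TNG for the members of 11 gene lists at 10 CPM or more, 1 point for each gene, spread vertically at random. Red points passed an FDR of 0.05, black bars are list medians and the dashed line is the median of all genes at 10 CPM or more, at -0.03; the bars of the amino acid list (0.90) and of glycolysis (0.57) stand to its right and that of the p53 targets (-0.64) to its left.

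In the other lists few members passed. No p53 target of 20 passed (Cdkn1a was higher with the 8 ESC libraries, FDR = 0.033), with 15 below 0, a median of -0.34 over all members and both E14 libraries below the TNG range in 7, against 4.87% of all genes. Ifi35 was the 1 called member of 31 interferon-stimulated genes (10.6 and 13.5 CPM in E14, 3.19 to 5.77 CPM in TNG, FDR = 0.026). The neuroectoderm markers used to check the label summed to 4.21 and 8.63 CPM in E14 and to 18.6 to 33.8 CPM in TNG. Most of this was Pax6, an eye and forebrain factor, at 6.10 and 3.22 CPM in E14 and at 12.8 to 26.4 CPM in TNG (log2 fold change -1.95, FDR = 0.72, and 0.017 with the 8 ESC libraries, where it was called lower). The lists of primitive endoderm (25 tested), trophoblast (16), neuroectoderm (13), mesoderm (10), two-cell-like (24), fibroblast (26), Y-linked (7), X inactivation (3), cholesterol synthesis (24), Polycomb repressive complex 2 (11) and cytosolic ribosomal protein genes (83) held no called gene in the fit of all libraries. Some of them stood to one side of 0 all the same: trophoblast had 13 genes above and 2 below (median 0.82), two-cell-like 18 and 6 (0.71) and primitive endoderm 18 and 5 (0.70), most of them below 10 CPM, and mesoderm 2 and 8 (-1.11).

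The genes that were lower in E14 came largely from 1 chromosome. Of the 14, 8 lay on chromosome 14 (Pnp2, Pnp, Apex1, Chd8, Prmt5, Mrpl52, Psmb5 and Trim35), which holds 3.51% of the genes tested. In the order of the positions in the table (mm10) they ran from Apex1 at 50924848 to Trim35 at 66296924. Apex1, an endonuclease of base excision repair, was at 113 and 101 CPM in E14. It was at 267 and 163 CPM in parental TNG, at 407 and 232 CPM in TNG MKOS and at 377 and 478 CPM in TNG OKMS (log2 fold change -1.52 ± 0.31, FDR = 0.011). Psmb5, a catalytic subunit of the proteasome, showed the same order: 171 and 181 CPM in E14, 251 and 261 CPM in TNG, 454 and 287 CPM in TNG MKOS and 438.2 and 493.2 CPM in TNG OKMS (log2 fold change -0.99 ± 0.22, FDR = 0.023). Prmt5, an arginine methyltransferase, was at 37.6 and 54.5 CPM in E14 and at 55.4 to 212 CPM in TNG (FDR = 0.0089). Chd8, a chromatin remodeler, was at 18.05 and 18.46 CPM against 26.3 to 107 CPM (FDR = 0.018), and Mrpl52, of the mitochondrial ribosome, at 73.4 and 75.6 CPM against 104 to 188 CPM (FDR = 0.019). Pnp and Pnp2, neighboring copies of purine nucleoside phosphorylase that may share reads, had log2 fold changes of -1.56 ± 0.37 and -2.05 ± 0.46 (FDR = 0.031 and 0.024). Trim35, a ubiquitin ligase of the tripartite motif family, was at 6.24 and 3.34 CPM against 6.97 to 25.2 CPM (FDR = 0.027). Each of the 8 calls was lost without at least 1 of the E14 libraries, and those of Chd8, Pnp, Pnp2 and Trim35 also without 1 or more TNG libraries, with FDRs of up to 0.64. In contrasts with single TNG lines, all 8 were called against TNG OKMS, Chd8 was called against TNG MKOS, and none was called against parental TNG.

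The whole stretch around these genes was low in E14. Over 232 genes of chromosome 14 at 10 CPM or more, the median log2 fold change of E14 minus TNG was -0.29, and on the other 19 chromosomes it lay between -0.08 and 0.09. For the single lines it was -0.13 against TNG, -0.41 against TNG MKOS and -0.35 against TNG OKMS.

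**Figure D4:**
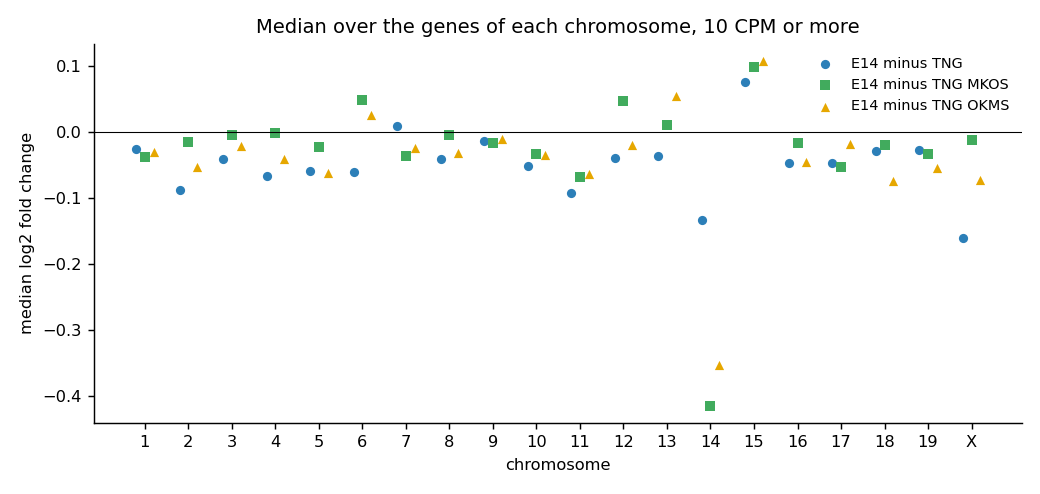
Median log2 fold change of E14 against each TNG line over the genes of every chromosome at 10 CPM or more. Chromosome 14 stands at -0.41 (TNG MKOS, squares) and -0.35 (TNG OKMS, triangles); against parental TNG (circles) it stands at -0.13, within the range of the other chromosomes (-0.16 to 0.08).

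The lower levels were not spread evenly over the chromosome. The genome was divided into windows of 4 Mb, after the values had been seen, and 320 windows held at least 8 genes at 10 CPM or more. The 6 windows of chromosome 14 from 48 to 72 Mb had medians of -0.86 to -0.56 for E14 minus the mean of the TNG lines. Elsewhere 2 windows were as low as the highest of these, on chromosome 10 at 20 to 24 Mb (-0.67) and on chromosome 4 at 144 to 148 Mb (-0.63). For E14 minus TNG MKOS the 6 windows ran from -0.96 to -0.72, and the lowest value elsewhere was -0.55. For E14 minus TNG OKMS they ran from -1.10 to -0.80, and 1 window elsewhere, on chromosome 4, was as low (-0.98). For E14 minus parental TNG the 6 windows ran from -0.49 to -0.16, and 55 windows elsewhere were as low as the highest of them. The named windows of chromosomes 10 and 4 stood at -0.55 and -0.58 against parental TNG, below all 6. The stretch of chromosome 14 from 48 to 72 Mb held 95 of the genes, of which 90 were lower in E14 than in TNG MKOS and 92 lower than in TNG OKMS. The median E14 level was 1.86-fold and 2.00-fold lower, respectively, and in 35 of the 95 genes both E14 libraries lay below all TNG libraries, a pattern that 4.87% of all genes showed. In the 92 genes before 48 Mb the medians of E14 minus TNG MKOS and TNG OKMS were -0.05 and 0.01.

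Parental TNG ESCs lay between E14 and the cassette lines in this stretch. No test was run on it, since its borders were set from the values. Relative to the mean of the 4 iPSC libraries kept without doxycycline, which no contrast above used, the median of the 95 genes was -0.89 and -0.86 in the E14 libraries and -0.48 and -0.60 in the TNG libraries. In the 4 libraries of the cassette lines it was between -0.10 and 0.17. The iPSCs, whose own mean is the reference and which descend from the cassette lines, lay between -0.10 and 0.19. In the next 8 Mb, from 72 to 80 Mb, with 20 genes, the order of E14 and TNG turned: TNG stood at -0.61 and -0.66, E14 at -0.35 and -0.24 and the cassette lines at -0.04 to 0.26. Beyond 80 Mb, E14 stood at 0.27 and 0.13 and TNG at 0.26 and 0.13. TNG MKOS exceeded parental TNG in 88 of the 95 genes, with a median of 0.58, and TNG OKMS exceeded it in 93, with a median of 0.67. These libraries hold RNA alone, and the DNA of the lines was not analysed here. Tdh, the threonine dehydrogenase on which ESCs depend, lies in the stretch at 63492346 and was at 176 and 163 CPM in E14 and at 333 to 714 CPM in TNG (log2 fold change -1.39 ± 0.37, FDR = 0.08).

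**Figure D5:**
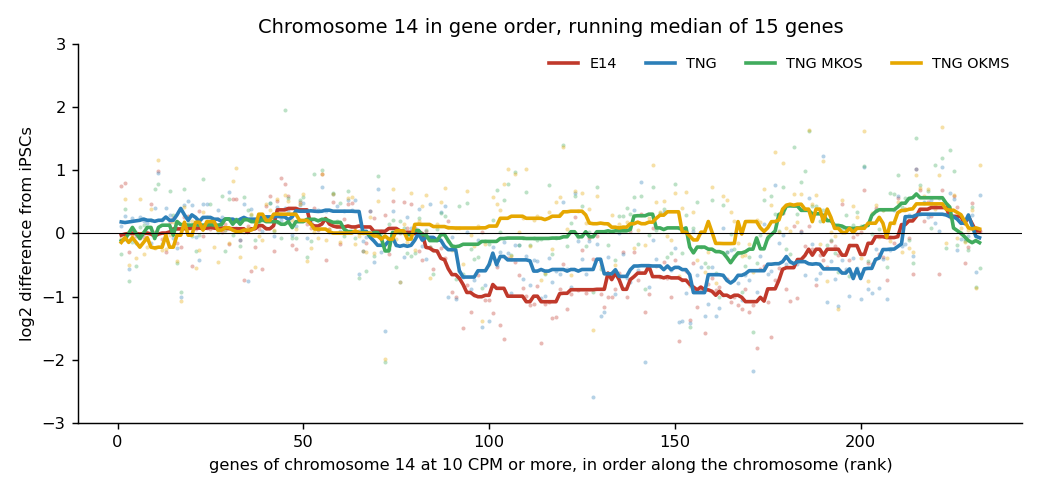
Genes of chromosome 14 at 10 CPM or more in their order along the chromosome (horizontal, rank 1 to 232) against the mean log2 difference of each line from the 4 iPSC libraries (vertical); points are genes and lines are running medians over 15 genes. In the middle stretch, which starts near rank 90, E14 (red) and parental TNG (blue) run below the cassette lines, with E14 the lower of them at first and parental TNG the lower toward its end.

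The other 6 genes lower in E14 lay elsewhere. Car2, a carbonic anhydrase, was at 28.1 and 27.3 CPM in E14 and at 97.0, 179 and 280 CPM (lowest, median and highest) in TNG, 6.29-fold lower (log2 fold change -2.65 ± 0.56, FDR = 0.014, and up to 0.27 without 1 E14 library). Actg1, the gamma actin, was at 613 and 619 CPM against 912 to 1917 CPM (log2 fold change -1.08 ± 0.22, FDR = 0.0096, also up to 0.27 without 1 E14 library). The remaining 4 had no read in E14. Over the 6 TNG libraries, 1700012B15Rik had 158 reads, Hdgfrp3 125 reads, and Casp8, the apoptotic caspase, and Gm15417 81 reads each. Against a floor of 3 reads over the group they were at least 15.3-fold, 12.1-fold, 7.83-fold and 7.83-fold lower in E14.

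The genes that were higher in E14 were mostly present in the iPSCs, whose MEFs came from chimeras made with the cassette lines. In 48 of the 57, the median of the 4 iPSC libraries without doxycycline was above the highest TNG library. Over all genes tested this held for 10.3%, but the genes were called from the same TNG libraries, so that the share is partly set by the choice. Rhox5 was at 149 to 376 CPM in these iPSCs, Tuba3a at 69.0 to 105 CPM, Smc1b at 19.06 to 50.92 CPM and Nnat at 2.67 to 6.39 CPM. In the MEFs Rhox5 did not exceed 5.38 CPM nor Tuba3a 1.02 CPM.

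Some genes differed among the TNG lines themselves, so that the mean of these lines hides a spread. Cxcr7, a chemokine receptor, was the gene called between TNG MKOS and parental TNG, at 8.61 and 9.60 CPM in TNG MKOS, 0.0985 and 0.959 CPM in TNG and 4.78 and 2.97 CPM in E14 (log2 fold change 3.88, FDR = 0.0036). The Zscan4 genes, which mark a passing two-cell-like state of ESCs and whose copies may share reads, were among those called between TNG OKMS and TNG MKOS. Zscan4d was at 71.2 and 121 CPM in TNG OKMS, 0.685 and 0 CPM in TNG MKOS, 17.5 and 10.6 CPM in TNG and 28.3 and 18.7 CPM in E14. E14 was thus above TNG MKOS (edgeR, called) and below TNG OKMS, and against the mean of the lines Zscan4d had an FDR of 0.46. The two-cell-like list summed to 402 and 328 CPM in E14, 814 and 753 CPM in TNG OKMS and 187 to 313 CPM in the other TNG libraries, and the exact permutation p of E14 against TNG was 1.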

How the data were processed

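The values are the counts deposited by the authors: STRT 5′-end reads per gene, with reads that hit several places given to the most 5′ exonic hit, so that close copies may share reads. The labels' processing notes name Bowtie 0.12.7 and mm10, and 96.8% of matched symbols lay within 1000 bases of their RefSeq gene on GRCm38.p6. Rows of repeats and spike RNAs were left out of library sizes. edgeR 4.0.16 (R 4.3.3; TMM factors, low counts filtered by condition, quasi-likelihood test, Benjamini-Hochberg FDR of at most 0.05) was fitted to all 48 libraries with 1 coefficient for each of 20 conditions. E14 was set against the mean of the 3 TNG lines. DESeq2 1.42.0, the 8 ESC libraries alone, no filter, a replicate block and leaving out each library were alternatives. In simulated data 200 of 15630 genes were changed, all drawn from genes at 10 CPM or more, with the TNG lines otherwise alike. Of these, 31% of 2-fold and 89% of 4-fold changes were recovered, and 4 unchanged genes were called. Recovery at lower levels was not simulated. Genes were named if part of the genotype, if among the 15 largest called changes in a direction with at least 10 CPM and no overlap of the groups, if called members of a list, or if among the 3 largest between TNG lines. Other list members, members called in the 8 ESC fit alone, the genes with no read in E14 and Cxcr7 were named after their values were seen. The members, lists and tests were chosen with earlier results of these data known. Floors of 3 reads cover counting error only. Summaries used Python 3.11.15 and scipy 1.17.1.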

Additional observations from a re-analysis of the deposited data

Results flagged for a closer look

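Among the 6 TNG libraries, 3 of 54 gene values examined had 1 library standing apart by Dixon's criterion for 6 samples (a gap over 0.625 of the range), where chance alone gives about 2.7. They were Nupr1 in TNG MKOS replicate 2 (gap 0.656 of the range; 30.2 CPM), Cth in the same library (0.648; 95.8 CPM), and Xlr3a in TNG OKMS replicate 2 (1.00; 0.328 CPM, the others at 0).

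Of the 10 genes that edgeR called between TNG OKMS and TNG MKOS, the naming rule took 4. For these 4 E14 compared differently with each of the 2 lines. Calcoco2, an autophagy receptor, had a log2 fold change of 10.29 for TNG OKMS minus TNG MKOS, with 44.6 and 8.42 CPM in TNG OKMS, none in TNG MKOS, 4.24 and 2.18 CPM in TNG and 5.31 and 12.3 CPM in E14. Gm4305_loc2 differed by 9.49, with 24.1 and 5.80 CPM in TNG OKMS, none in TNG MKOS and 1.46 and 2.85 CPM in E14. Zscan4d differed by 7.78. Scd2, a fatty acid desaturase, differed by -1.34, with 40.73 and 53.03 CPM in TNG OKMS, 127 and 94.4 CPM in TNG MKOS and 144 and 110 CPM in E14. The fitted folds of Calcoco2 and Gm4305_loc2 depend on how counts of 0 are treated.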

How the results depend on the processing

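Counts of called genes moved with the fit, and the causes were not tested beyond what each setting changes. Higher and lower genes in E14 numbered 57 and 14. Without the filter on low counts they numbered 255 and 91, with the 8 ESC libraries alone 99 and 33, with the 24 unsorted libraries 87 and 19, and with DESeq2 21 and 12. Against parental TNG, TNG MKOS and TNG OKMS, in that order, E14 had 181, 186 and 237 calls without the filter. With the 8 ESC libraries alone it had 36 against TNG and 49 against TNG MKOS, with the unsorted libraries 33 and 25, and with DESeq2 13 and 24. TNG MKOS against TNG gave 41 calls without the filter, 2 with the 8 libraries and 2 with DESeq2. TNG OKMS against TNG gave 36, 7 and 8, and TNG OKMS against TNG MKOS 104, 32 and 3, with 21 in the unsorted libraries.

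Leaving out 1 library gave 12 to 72 higher and 2 to 16 lower genes, 0 to 7 calls against TNG, 8 to 15 against TNG MKOS and 7 to 39 against TNG OKMS. Among TNG lines it gave 0 to 5 (TNG MKOS and TNG), 0 to 2 (TNG OKMS and TNG) and 0 to 11 (TNG OKMS and TNG MKOS). The chromosome 14 median was -0.23 over all its tested genes and -0.29 at 10 CPM or more. Without single libraries it ran from -0.28 to -0.13, a range that takes in -0.23 but not -0.29. The difference of E14 minus TNG in mitochondrial reads was 1.78 to 2.92 percentage points without single libraries, and that in the two-cell-like sum, -62.0 CPM with all libraries, ran from -110 to 15.4 CPM, turning to 15.4 and 3.22 CPM without TNG OKMS replicate 1 or 2. Over 48 named genes and 17 settings, none reversed, 170 values lost the call and 9 gained it. Another 630 kept their side, which for genes such as Nanog was no call. The other 7 could not be had (Hprt and Plagl1 were filtered out of the 8 ESC fits, and mt-Nd6 left out with the mitochondrial transcripts).

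The replicate numbers did not pair the libraries: deviations of same-numbered libraries correlated at -0.27 to 0.13, with 1 of 6 pairs over 0.1. With the replicate block in all 48 libraries there were 80 higher and 22 lower genes, 17 calls against TNG and 27 against TNG MKOS. With the block in the 8 ESC libraries there were 93 and 28, with 34 calls against TNG, 49 against TNG MKOS, 51 against TNG OKMS, and 2, 3 and 30 among TNG lines.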
